A study of Mus musculus with 12 samples.

Results

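Pericytes and vascular smooth muscle cells, together called mural cells, were followed in the tumors through 10 genes chosen by symbol: Rgs5, Cspg4, Acta2, Tagln, Myh11, Des, Mcam, Notch3, Kcnj8 and Abcc9. All 10 of them were among the 18211 genes of the expression table, and all 10 passed the filter on low counts that left 13563 genes for testing. The data were RNA sequencing of 12 whole tumors grown from MC38 colorectal adenocarcinoma cells of the mouse, placed under the skin of female C57BL/6 animals bought at 5 weeks of age. The mice were split into 4 groups on day 7 after the cells were injected, and 3 tumors per group were sequenced. The CK group received vehicle (DMSO and corn oil). The PB-020 group received PB-020, an oral inhibitor of IGF-1R, a growth factor receptor of the insulin family, at 50 mg/kg per day by gavage. The anti-PD-1 group received an antibody that blocks the inhibitory T cell receptor PD-1, at 200 μg per mouse into the peritoneum on days 9, 12, 15 and 18. The PB-020+anti-PD-1 group, called the combination below, received both drugs. All groups carried the same line in the same host strain, no control antibody is named for the CK and PB-020 groups, and tumors grown under the skin lack the vessels and muscle layers of the colon wall. Nothing in the labels ties each tumor to a mouse, so p-values measure the spread between these tumors.

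Pericytes wrap the wall of capillaries and small venules and share a basement membrane with the endothelial cells, while smooth muscle cells ring arteries and contract. Endothelial cells recruit and hold mural cells with platelet-derived growth factor B acting on the receptor PDGFRB, and mature them through Notch ligands acting on NOTCH3. Contractile proteins in these cells are largely under the transcription factor SRF, which binds the CArG box, and its coactivators. The tone of the cells is set in part by an ATP-sensitive potassium channel built from the proteins of Kcnj8 and Abcc9.

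Library totals ran from 16545394 to 17217035 expected counts (median 16927043), so depth varied little between tumors. The tumor labelled anti-PD-1 1 stood apart from the other 11 libraries. It held 67.67 FPKM (fragments scaled to gene length and library size) of Ckm, the creatine kinase of skeletal muscle, against 0.51 to 5.34 FPKM elsewhere, and its 15 skeletal muscle markers summed to 1533 TPM (transcript shares scaled to the same total in each library) against 29.79 to 162.5 TPM in the others. It also had the most Ptprc, the leukocyte antigen CD45, with 25.38 FPKM against 9.80 to 20.27 FPKM. Results of the anti-PD-1 group are therefore given with and without it. The colon origin of MC38 left little trace, as 8 of 9 colon epithelial markers were under 1 TPM in every tumor and Epcam, an epithelial adhesion gene, did not pass 0.54 FPKM. Smooth muscle genes differed in level: Myocd, the smooth muscle coactivator of SRF, reached at most 0.05 FPKM and Cnn1, a marker of mature smooth muscle, at most 1.01 FPKM. Acta2 and Tagln were higher, with means of 19 and 10.7 FPKM in CK tumors.

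In the 3 CK tumors the highest levels were those of Mcam (22.4 ± 4 FPKM), Cspg4 (20.8 ± 0.561 FPKM) and Acta2 (19 ± 3.73 FPKM; SD, n = 3 in each case). Neighbours within these first 3 overlapped in their ranges. Rgs5 at 12.2 ± 1.15 FPKM and Tagln at 10.7 ± 2.78 FPKM came next, below the first 3 without overlap and overlapping each other. Des (4.69 ± 1.56 FPKM), Kcnj8 (2.99 ± 0.768 FPKM), Abcc9 (2.73 ± 0.589 FPKM) and Notch3 (2.25 ± 0.19 FPKM) formed a lower step in which each range met the next. Myh11 was lowest, at 0.66 ± 0.18 FPKM, with expected counts of 45 to 201 per tumor over all groups. A share of 70.2% of the tested genes lay below Mcam in CK tumors and 9.78% below Myh11, so these genes ranged from moderate to low expression in this tissue. In bulk tumors, fewer cells of a type and less RNA per cell cannot be told apart, and nor can the cell types that make a transcript.

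**Figure D1:**
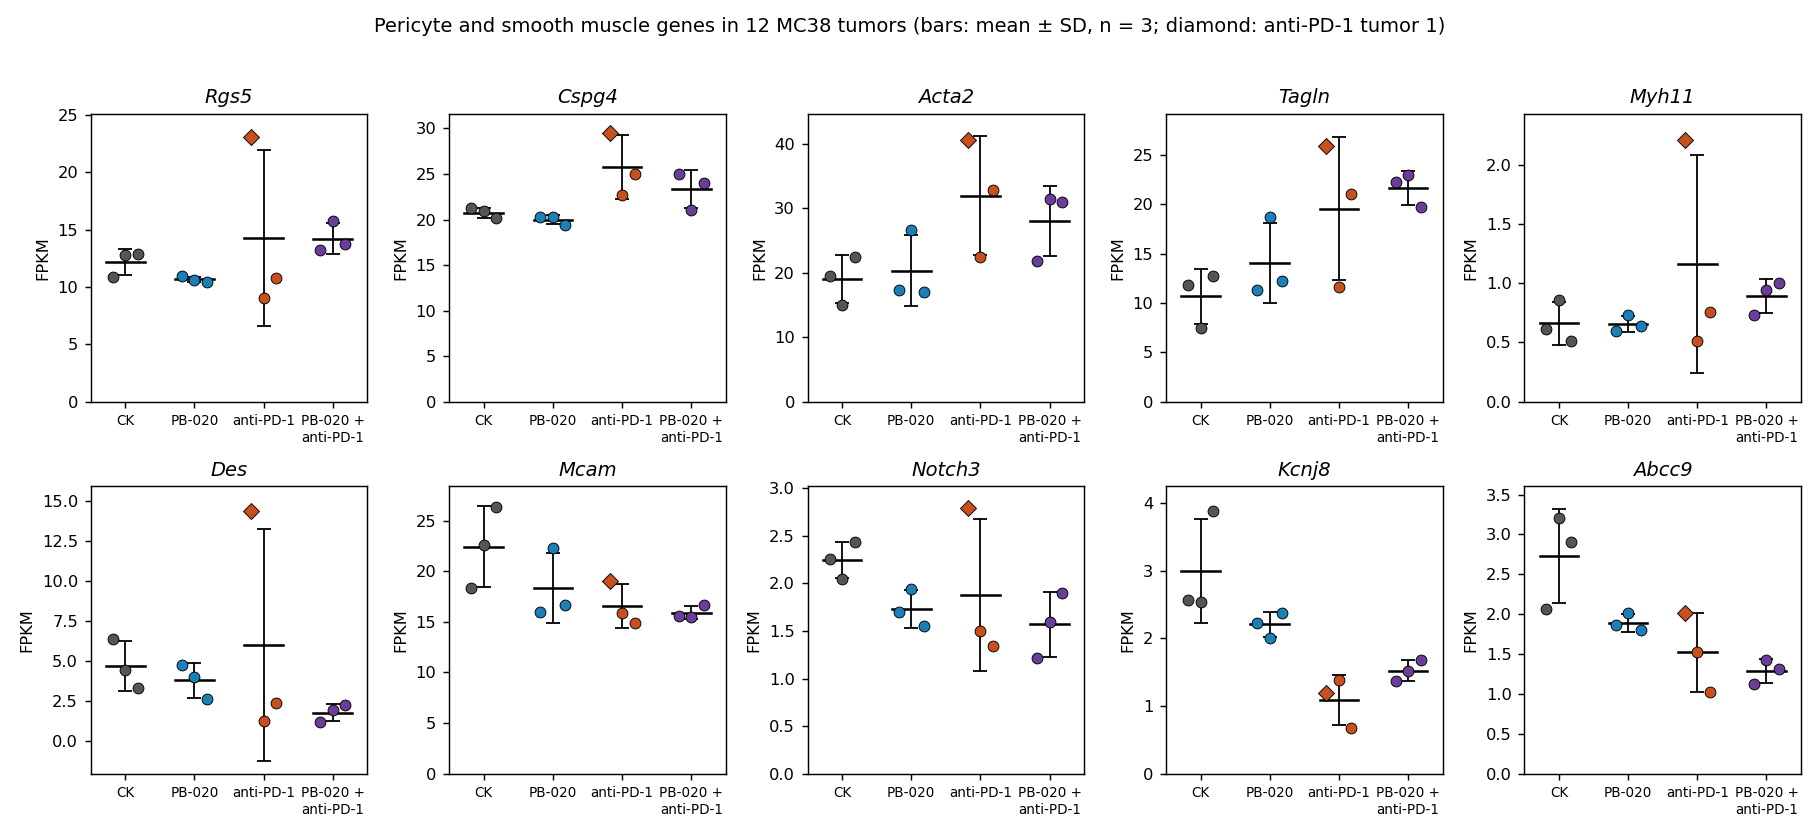
FPKM of the 10 genes (vertical axes, starting at or below 0) in each of 12 tumors by treatment group, with points for tumors, horizontal bars for group means and vertical bars for ± SD (n = 3). Kcnj8 lies lower in all 6 tumors given anti-PD-1 (0.68 to 1.68 FPKM) than in the 6 without it (2.01 to 3.88 FPKM), while the diamond, anti-PD-1 tumor 1, is the highest point in 7 of the 10 panels.

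Anti-PD-1 moved the 10 genes in both directions, and no treatment moved all of them 1 way. In anti-PD-1 tumors Kcnj8 and Abcc9 fell and Cspg4 rose against CK. In combination tumors Kcnj8, Abcc9 and Mcam fell and Tagln rose. These are 3 of 10 genes for anti-PD-1 (1 higher, 2 lower; edgeR quasi-likelihood test, adjusted p under 0.05) where 8.26% of all tested genes were called, 4.18% higher and 4.08% lower. For the combination they are 4 of 10 (1 higher, 3 lower), where 17.9% of all tested genes were called, 8.35% higher and 9.6% lower. Both comparisons use the same 3 CK tumors and are not independent of each other. A second rule in the same model, a fold over 1.5 with an unadjusted p under 0.05, took Acta2 and Tagln as higher and Kcnj8 and Abcc9 as lower in both comparisons, 4 of 10 genes beside 7.18% of tested genes for anti-PD-1 and 8.52% for the combination. PB-020 alone gave no call among the 10 genes with edgeR, DESeq2 or limma, as for all tested genes with edgeR (0%). Abcc9, 1 gene of the 10, had an unadjusted p under 0.05, and 0 of 10 passed the fold rule, which took 0.56% of tested genes. The share of tested genes at that unadjusted p alone is not given, here or in the comparisons below.

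Setting the 6 tumors given the antibody against the 6 without it, averaged over PB-020, called 6 of the 10 genes. Cspg4, Acta2 and Tagln were higher and Mcam, Kcnj8 and Abcc9 lower, where 24.2% of tested genes were called, 11.8% higher and 12.3% lower. The median log2 change of the 10 genes was 0.04 in that comparison against 0.00 over all tested genes, since rises and falls were equal in number. It was 0.29 for anti-PD-1 against CK, −0.14 for the combination and −0.21 for PB-020, where the medians over all tested genes were 0.00 in each case. Without anti-PD-1 tumor 1 the median for anti-PD-1 was −0.39. The genes called then were Notch3, Kcnj8 and Abcc9, all lower, 3 of 10 beside 4.57% of tested genes. Leaving that tumor out also lowered standard errors in comparisons it is no part of, such as that of Des in the combination, from 0.83 to 0.38. The combination then had 6 of 10 genes called (Tagln higher; Des, Mcam, Notch3, Kcnj8 and Abcc9 lower) beside 24.4% of tested genes, and the 6 genes called between tumors with and without the antibody were Cspg4 (higher) and Des, Mcam, Notch3, Kcnj8 and Abcc9 (lower) beside 21.8%.

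**Figure D2:**
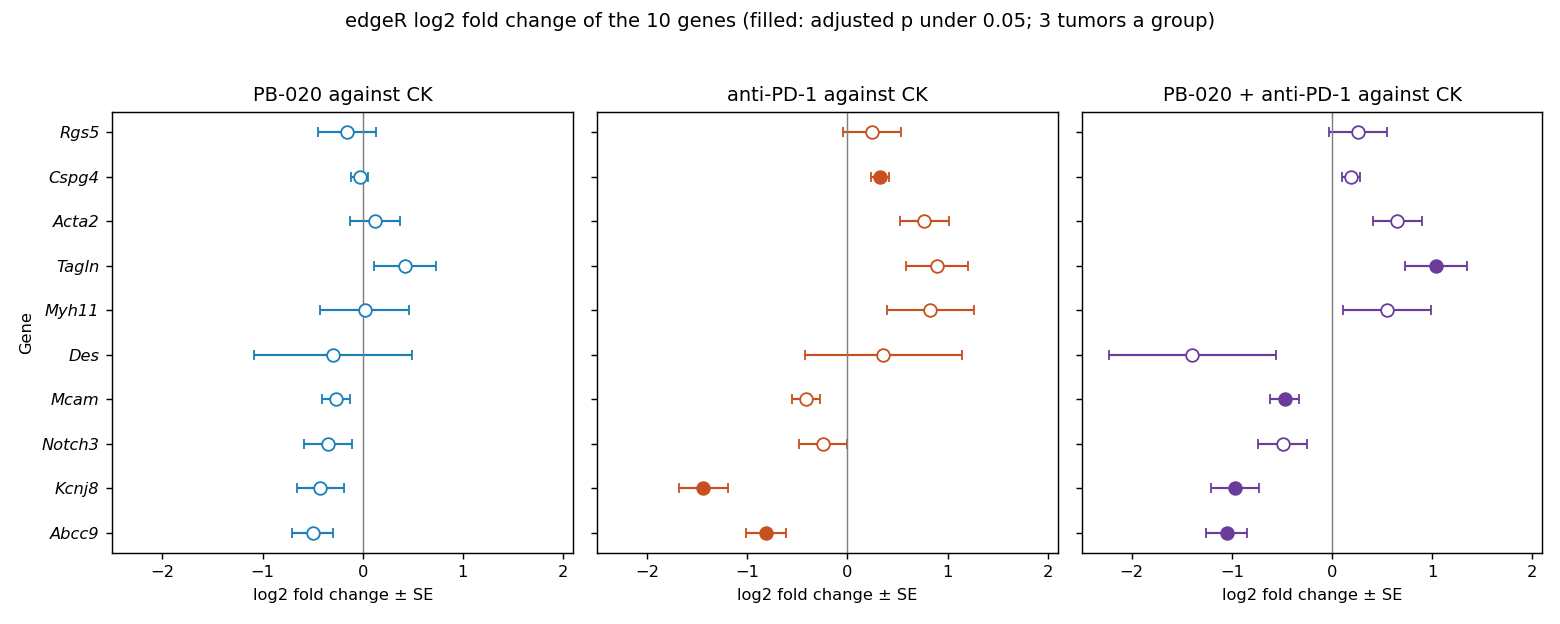
Log2 fold change against CK (horizontal axis, ± SE) of the 10 genes for PB-020, anti-PD-1 and the combination, 3 tumors per group, with filled points at an edgeR adjusted p under 0.05. Kcnj8 and Abcc9 are filled on the low side for anti-PD-1 (−1.44 and −0.81) and for the combination (−0.97 and −1.05), and no point is filled for PB-020.

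Kcnj8 and Abcc9 encode the 2 kinds of subunit of the ATP-sensitive potassium channel of mural cells, the pore Kir6.1 and the regulatory sulfonylurea receptor SUR2. They are neighbours on mouse chromosome 6 of GRCm38.p6, Kcnj8 at chr6:142564837-142571614 and Abcc9 at chr6:142587862-142702766, both on the minus strand, with 16247 bases and 0 annotated genes between them. A noncoding RNA, 5330439B14Rik, overlaps 11868 bases of Abcc9, and the counting is not stated to have used strand. Kcnj8 measured 2.56, 2.54 and 3.88 FPKM in CK tumors, 2.22, 2.01 and 2.38 FPKM with PB-020, 1.19, 1.39 and 0.68 FPKM with anti-PD-1 and 1.37, 1.52 and 1.68 FPKM in combination. Every tumor given the antibody was below every tumor without it, which 8.6% of tested genes also showed in one direction or the other. The log2 change was −1.44 ± 0.24 (SE; edgeR adjusted p = 0.00836) for anti-PD-1 and −0.97 ± 0.24 (adjusted p = 0.0156) for the combination. These values rest on expected counts of 25 to 136 per tumor. For anti-PD-1 the call held without any single library but was lost when only the 2 groups were fitted (adjusted p = 0.0608). For the combination it was lost without CK tumor 3 (adjusted p = 0.0685), combination tumor 1 (0.0664) or combination tumor 2 (0.0506).

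Abcc9 followed with 2.07, 3.21 and 2.90 FPKM in CK tumors, 1.86, 2.02 and 1.80 FPKM with PB-020, 2.01, 1.53 and 1.02 FPKM with anti-PD-1 and 1.13, 1.42 and 1.31 FPKM in combination. All CK tumors were above all others. Of all tested genes, 14.3% did not overlap CK with PB-020, 29.1% with anti-PD-1 and 40.7% in combination. The share separated from CK in all groups at once was not counted. The log2 change of Abcc9 was −0.81 ± 0.20 (edgeR adjusted p = 0.0323) for anti-PD-1 and −1.05 ± 0.21 (adjusted p = 0.00677) for the combination, and the second call held under all 22 alternatives. The first was lost without CK tumor 2 (adjusted p = 0.131), CK tumor 3 (0.0771) or anti-PD-1 tumor 3 (0.081), in the fit of the 2 groups alone (0.137) and with limma on TPM (0.0595). PB-020 alone gave −0.50 ± 0.20 (unadjusted p = 0.0284, adjusted p = 0.874). Over the 12 tumors Kcnj8 and Abcc9 correlated with Pearson r = 0.793 (permutation test, two-sided, p = 0.00218, adjusted over 5 pairs 0.00545; Spearman rho = 0.762, permutation p = 0.00562, adjusted 0.014). Treatment groups contribute to that value: r was 0.526 on deviations from group means, 0.62 without CK tumor 3 and anti-PD-1 tumor 3, and 0.873 without anti-PD-1 tumor 1. The subunits that form the channel of pancreas and neurons, Kcnj11 and Abcc8, were listed at 0.00 to 0.26 FPKM and 0.00 to 0.01 FPKM.

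The windows around an annotated start of Kcnj8 and Abcc9 are printed because the pair is adjacent and both genes fell, and that of Acta2 because it is the best studied of the contractile genes. Each runs from 250 bases before the start to 50 after it, 5′ to 3′ on the gene's strand, from RefSeq on GRCm38.p6, with Acta2 at chr19:34255324-34255623, Kcnj8 at chr6:142571565-142571864 and Abcc9 at chr6:142702225-142702524, all minus strand. Capitals mark matches on either strand to TGGGAA (the core bound by the Notch factor RBPJ), to CATTCC (the MCAT element) or to the CArG box with 1 C or G allowed among its A and T bases. Such windows were found for 8 of the 10 genes, all but Tagln and Myh11.
Acta2: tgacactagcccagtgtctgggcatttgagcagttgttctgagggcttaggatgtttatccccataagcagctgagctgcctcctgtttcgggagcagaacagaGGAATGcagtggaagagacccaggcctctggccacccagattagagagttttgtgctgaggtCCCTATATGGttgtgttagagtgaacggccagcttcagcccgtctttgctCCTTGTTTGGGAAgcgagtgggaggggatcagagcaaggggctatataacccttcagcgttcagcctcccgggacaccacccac
Kcnj8: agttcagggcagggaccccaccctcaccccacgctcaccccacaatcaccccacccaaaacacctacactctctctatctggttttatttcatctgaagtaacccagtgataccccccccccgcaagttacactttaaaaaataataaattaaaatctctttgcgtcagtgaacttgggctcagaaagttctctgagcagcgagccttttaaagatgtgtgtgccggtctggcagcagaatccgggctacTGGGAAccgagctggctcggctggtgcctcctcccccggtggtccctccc
Abcc9: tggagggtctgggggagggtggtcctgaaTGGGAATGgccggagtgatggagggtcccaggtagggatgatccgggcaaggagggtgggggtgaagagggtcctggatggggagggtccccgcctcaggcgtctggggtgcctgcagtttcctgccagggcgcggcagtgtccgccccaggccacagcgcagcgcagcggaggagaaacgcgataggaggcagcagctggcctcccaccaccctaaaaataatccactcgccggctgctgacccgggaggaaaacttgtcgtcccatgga
An exact CArG box was in none of the 8 windows, and in 1.63% of 32851 mouse promoter windows of the same length. The relaxed box, found in 9.98% of them, matched in Acta2 from base −84 and from base −34, counted from the start. TGGGAA, found in 25.6% of windows, matched in Acta2 from −27, in Kcnj8 from the start itself and in Abcc9 from −221. CATTCC, in 14.7%, matched on the opposite strand in Acta2 from −146 and in Abcc9 from −219. In Acta2 the TGGGAA overlaps the second relaxed CArG box, and in Abcc9 it overlaps the CATTCC match. Shares of this size make single matches common, and the letters alone describe the windows without showing that a factor binds them.

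Acta2 and Tagln, contractile genes, rose between tumors with and without the antibody. Acta2, the smooth muscle alpha actin that also marks activated fibroblasts (chr19:34240336-34255585, minus strand), measured 19.56, 15.03 and 22.43 FPKM in CK tumors and 17.28, 26.69 and 16.96 FPKM with PB-020. With anti-PD-1 it measured 40.68, 22.39 and 32.90 FPKM, and in combination 21.78, 31.45 and 31.04 FPKM. The groups with the antibody each had 1 tumor just inside the CK range by FPKM and the rest above it. Between the 6 tumors with and the 6 without the antibody its log2 change was 0.65 ± 0.17 (edgeR adjusted p = 0.0255). The call was lost with limma on TPM (0.0591) and without CK tumor 2, PB-020 tumor 1 or 3, anti-PD-1 tumor 1 or 3, or combination tumor 2 or 3 (adjusted p from 0.0523 to 0.0622). Against CK alone the change was 0.77 ± 0.25 (adjusted p = 0.0837) for anti-PD-1, which passed with DESeq2 (0.00551) and without anti-PD-1 tumor 2 (0.0286), and 0.65 ± 0.25 (adjusted p = 0.0947) for the combination, which passed with DESeq2 (0.0143) and in the fit of the 2 groups alone (0.0332).

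Tagln, which encodes the actin-binding protein transgelin (chr9:45929628-45936058), measured 11.77, 7.51 and 12.74 FPKM in CK tumors and 11.27, 18.66 and 12.23 FPKM with PB-020. With anti-PD-1 it measured 25.84, 11.62 and 21.06 FPKM, and in combination 22.23, 22.95 and 19.67 FPKM. All combination tumors were above all CK tumors, while anti-PD-1 tumor 2 fell within the CK range. The log2 change was 1.04 ± 0.31 (edgeR adjusted p = 0.0451) for the combination, 0.89 ± 0.31 (adjusted p = 0.103) for anti-PD-1 and 0.76 ± 0.22 (adjusted p = 0.0325) between tumors with and without the antibody. For the combination the call was lost with no filter on low genes (0.0694), with limma on TPM (0.0656) and without any of the 3 CK tumors, PB-020 tumors 1 and 3, anti-PD-1 tumor 3 or the 3 combination tumors (adjusted p from 0.0534 to 0.14). Between tumors with and without the antibody it was lost with no filter (0.0515), with limma on TPM (0.0522) and without CK tumor 2, PB-020 tumor 1 or 3, anti-PD-1 tumor 1 or 3, or combination tumor 1 or 2 (adjusted p from 0.0634 to 0.0769). The anti-PD-1 value passed with DESeq2 (0.0113) and without anti-PD-1 tumor 2 (0.0144). Tagln shares 2480 bases with Pcsk7, and its expected counts were fractional in 12 of 12 libraries, so part of its reads was divided between genes. The other 9 genes had whole counts in every library.

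Acta2 and Tagln moved together across tumors, with r = 0.902 (permutation p = 0.00011, adjusted over 5 pairs 0.00055; rho = 0.895, permutation p = 0.00019, adjusted 0.00095). The value was 0.869 on deviations from group means, 0.839 without anti-PD-1 tumor 1 and CK tumor 2, and 0.882 without anti-PD-1 tumor 1 alone. The coding sequence of Acta2 is 85.4% identical to that of the skeletal actin Acta1, 84.2% to the enteric actin Actg2 and 82.5% to the cardiac actin Actc1, with identical runs of at most 29 bases. Acta1 was at 3.19 to 176.43 FPKM and was also highest in anti-PD-1 tumor 1. Actg2 ranged from 0.45 to 3.78 FPKM and Actc1 from 0.00 to 1.3 FPKM.

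Myh11, the smooth muscle myosin heavy chain (chr16:14194527-14292188), measured 0.61, 0.86 and 0.51 FPKM in CK tumors and 0.60, 0.73 and 0.64 FPKM with PB-020. With anti-PD-1 it measured 2.21, 0.51 and 0.76 FPKM, and in combination 0.73, 0.94 and 1.0 FPKM. A single tumor was high, and the rest overlapped between groups. The anti-PD-1 change of 0.83 ± 0.44 (edgeR adjusted p = 0.251) became −0.04 ± 0.25 (adjusted p = 0.94) without that tumor and 1.17 (adjusted p = 0.0425) without anti-PD-1 tumor 2. The combination change was 0.55 ± 0.44 (adjusted p = 0.402).

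Des encodes desmin, the intermediate filament of pericytes and of all muscle (chr1:75360292-75368579, plus strand), and overlaps the noncoding RNA Gm15179 by 370 bases. It measured 6.37, 4.40 and 3.30 FPKM in CK tumors, 4.72, 3.97 and 2.61 FPKM with PB-020, 14.37, 1.23 and 2.38 FPKM with anti-PD-1 and 1.14, 1.92 and 2.22 FPKM in combination. Anti-PD-1 tumor 1 was the highest of all 12 and the other 2 tumors of its group were below every CK tumor, as were the 3 combination tumors. No comparison passed the test with all tumors: the log2 change was 0.36 ± 0.78 (edgeR adjusted p = 0.806) for anti-PD-1 and −1.40 ± 0.83 (adjusted p = 0.273) for the combination. Without anti-PD-1 tumor 1 the values were −1.35 ± 0.43 (adjusted p = 0.116) and −1.40 ± 0.38 (adjusted p = 0.0299), and the change between tumors with and without the antibody was −1.22 ± 0.29 (adjusted p = 0.0192). Des correlated with Ckm at r = 0.729 (permutation p = 0.0142, adjusted over 5 pairs 0.0236), with rho = 0.49 (permutation p = 0.11, adjusted 0.183). The relation rested on the extreme samples, since r was 0.279 without anti-PD-1 tumor 1 and combination tumor 1 and 0.312 without anti-PD-1 tumor 1 alone. On deviations from group means, with anti-PD-1 tumor 1 included, r was 0.92. How much of the Des signal came from skeletal muscle in that tumor was not tested.

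**Figure D3:**
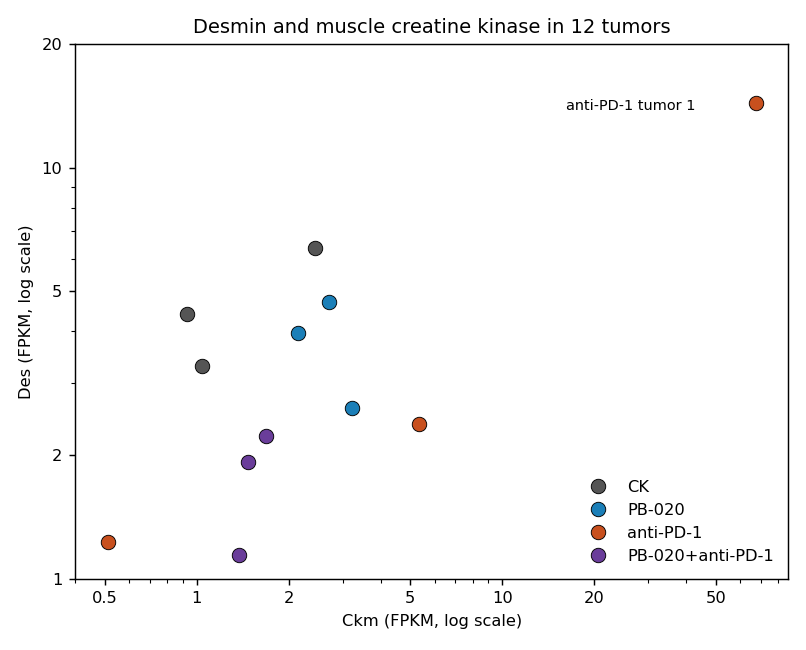
Des against Ckm in 12 tumors, both in FPKM on log axes, with colors for treatment groups. Anti-PD-1 tumor 1 lies alone at 14.37 FPKM Des and 67.67 FPKM Ckm, and among the other 11 tumors r was 0.312.

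Among the surface and signaling genes of pericytes, Cspg4 rose with the antibody by a small amount and Mcam fell. Cspg4 encodes the proteoglycan NG2 (chr9:56865104-56899870, plus strand). It measured 21.24, 20.88 and 20.14 FPKM in CK tumors, 20.33, 20.25 and 19.38 FPKM with PB-020, 29.54, 22.64 and 24.97 FPKM with anti-PD-1 and 24.98, 21.04 and 23.99 FPKM in combination. The anti-PD-1 tumors lay above all CK tumors, and combination tumor 2 fell within the CK range by FPKM. The log2 change was 0.33 ± 0.09 (edgeR adjusted p = 0.0366) for anti-PD-1, 0.19 ± 0.09 (adjusted p = 0.144) for the combination and 0.27 ± 0.06 (adjusted p = 0.00756) between tumors with and without the antibody. The last call held under all 21 alternatives. The first held under 10 of 22 and was lost with limma on FPKM or TPM, in the fit of the 2 groups alone (0.107), and without any of the 3 CK tumors, PB-020 tumor 1 or 3, anti-PD-1 tumor 1 or 3, or combination tumor 3 (adjusted p from 0.0511 to 0.115).

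Mcam encodes the adhesion molecule CD146, which endothelial cells and some cancer cells carry too (chr9:44134658-44142727, plus strand). It measured 18.36, 22.59 and 26.35 FPKM in CK tumors, 16.00, 22.34 and 16.64 FPKM with PB-020, 19.00, 15.87 and 14.84 FPKM with anti-PD-1 and 15.62, 15.47 and 16.66 FPKM in combination. Combination tumors were all below CK tumors, whereas PB-020 and anti-PD-1 tumors overlapped them. The log2 change was −0.47 ± 0.14 (edgeR adjusted p = 0.038) for the combination, −0.42 ± 0.14 (adjusted p = 0.0859) for anti-PD-1 and −0.31 ± 0.10 (adjusted p = 0.0405) between tumors with and without the antibody. For the combination the call was lost without CK tumor 2 or 3 or any combination tumor (adjusted p from 0.07 to 0.127). Between tumors with and without the antibody it was lost with limma on FPKM or TPM and without CK tumor 2 or 3, PB-020 tumor 2, anti-PD-1 tumor 2 or 3 or any combination tumor (adjusted p from 0.0627 to 0.0855). The anti-PD-1 value passed with DESeq2 (0.0406), without CK tumor 1 (0.039) and without PB-020 tumor 2 (0.0387).

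Rgs5, a regulator of G protein signaling and a classical pericyte marker (chr1:169655501-169695813, plus strand), measured 10.84, 12.77 and 12.90 FPKM in CK tumors and 10.93, 10.64 and 10.47 FPKM with PB-020. With anti-PD-1 it measured 23.04, 9.0 and 10.74 FPKM, and in combination 13.19, 15.73 and 13.73 FPKM. Anti-PD-1 tumor 1 was the highest of the 12 and the other 2 tumors of that group were below every CK tumor, while the combination tumors were all above CK by a small margin. Against CK the log2 change was 0.25 ± 0.29 (edgeR adjusted p = 0.632) for anti-PD-1 and 0.26 ± 0.29 (adjusted p = 0.573) for the combination. Leaving out anti-PD-1 tumor 1 gave −0.27 ± 0.10 (adjusted p = 0.14) and 0.26 ± 0.09 (adjusted p = 0.0526).

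Notch3, the Notch receptor of mural cells (chr17:32120820-32166896, minus strand), overlaps the noncoding RNAs Gm38585 and Gm41568 by 10673 and 3142 bases. It measured 2.26, 2.05 and 2.43 FPKM in CK tumors, 1.70, 1.94 and 1.55 FPKM with PB-020, 2.79, 1.5 and 1.34 FPKM with anti-PD-1 and 1.22, 1.59 and 1.90 FPKM in combination. Apart from anti-PD-1 tumor 1, every treated tumor was below every CK tumor, a pattern not counted over all tested genes. With all tumors the log2 change was −0.25 ± 0.24 (edgeR adjusted p = 0.55) for anti-PD-1 and −0.49 ± 0.24 (adjusted p = 0.174) for the combination. Without anti-PD-1 tumor 1 they were −0.64 ± 0.16 (adjusted p = 0.0383) and −0.49 ± 0.14 (adjusted p = 0.0197), and −0.39 ± 0.11 (adjusted p = 0.0181) between tumors with and without the antibody. Rgs5 with Notch3 gave r = 0.468 (permutation p = 0.122, adjusted 0.152) and r = 0.0471 without anti-PD-1 tumor 1, and Rgs5 with Kcnj8 gave r = −0.218 (permutation p = 0.491). On deviations from group means, with anti-PD-1 tumor 1 included, these pairs had r = 0.784 and r = 0.103.

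**Figure D4:**
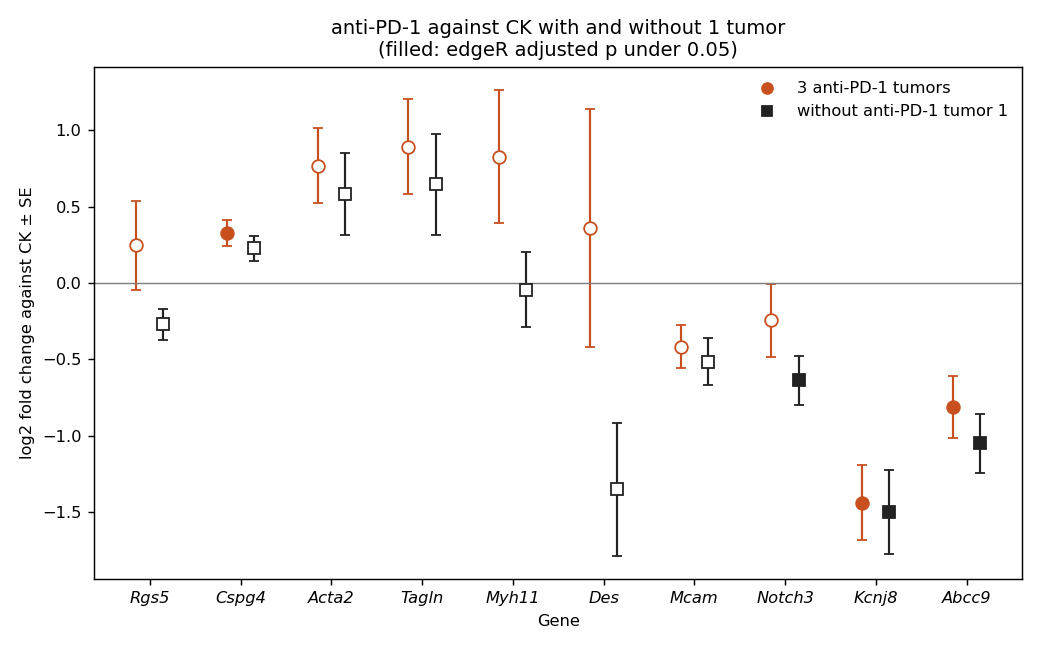
Log2 fold change of the 10 genes for anti-PD-1 against CK (vertical axis, ± SE) with all 3 anti-PD-1 tumors (circles) and without anti-PD-1 tumor 1 (squares), filled at an edgeR adjusted p under 0.05. Rgs5, Myh11 and Des change sign (0.25 to −0.27, 0.83 to −0.04 and 0.36 to −1.35), while Kcnj8 and Abcc9 are filled and low in both (−1.44 and −1.5, −0.81 and −1.05).

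On the log2 scale of counts scaled to library size (CPM) with TMM scaling, groups of 3 did not overlap for 3 of the 10 genes between PB-020 and CK (Notch3, Kcnj8 and Abcc9, all lower), where 14.3% of tested genes did not overlap. Between anti-PD-1 and CK there were 4 such genes (Cspg4 and Acta2 higher, Kcnj8 and Abcc9 lower) beside 29.1%. Between the combination and CK there were 9, all but Myh11, beside 40.7%. Rgs5, Cspg4, Acta2 and Tagln were the 4 higher ones and Des, Mcam, Notch3, Kcnj8 and Abcc9 the 5 lower ones. Small differences in scaling decide some of these, as Acta2 in both comparisons and Cspg4 in the second overlapped CK by FPKM. Cspg4 and Kcnj8 alone of the 10 separated the 6 tumors with the antibody from the 6 without.

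The combination was also compared with each drug alone. Against PB-020 no gene of the 10 passed with edgeR, DESeq2 or limma. At the same adjusted threshold edgeR called 3.35% of tested genes. At the looser unadjusted p under 0.05, where the share of all tested genes is not given, there were 3 of 10. Abcc9 (log2 change −0.55 ± 0.21, edgeR adjusted p = 0.141), Cspg4 (0.22 ± 0.09, 0.156) and Kcnj8 (−0.54 ± 0.24, 0.2) were these 3. Rgs5 was 0.41 ± 0.29 higher (adjusted p = 0.432) and passed without anti-PD-1 tumor 1, a library of neither group (0.0131), or in the fit of the 2 groups alone (0.00439), where Abcc9 passed too (0.00888). Against anti-PD-1 alone 0 of 10 genes passed with any of the 3 tools and 0 had an unadjusted p under 0.05, in a comparison with 0% of tested genes called. The largest difference was that of Des, −1.76 ± 0.83 (adjusted p = 0.703), which was −0.045 ± 0.44 (adjusted p = 0.987) without anti-PD-1 tumor 1. Leaving out that tumor also moved Rgs5 from 0.01 ± 0.29 to 0.53 ± 0.10 (unadjusted p = 0.000129, adjusted p = 0.117) and Myh11 from −0.28 ± 0.43 to 0.59 ± 0.24 (unadjusted p = 0.0277, adjusted p = 0.592), both higher in the combination, and no gene passed.

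Whether PB-020 altered the response to the antibody was tested as an interaction. No gene of the 10 passed with edgeR, DESeq2 or limma (0% of tested genes with edgeR). At an unadjusted p under 0.05, where the share of all tested genes is not given, there was 1 gene. That was Kcnj8, which fell less in combination than the sum of the single treatments, with an interaction of 0.89 ± 0.34 on the log2 scale (unadjusted p = 0.0208, edgeR adjusted p = 1). No gene passed without anti-PD-1 tumor 1 either, but 3 then had an unadjusted p under 0.05: Rgs5, whose interaction went from 0.17 ± 0.41 to 0.69 ± 0.14 (unadjusted p = 0.000163, adjusted p = 0.289), Kcnj8 (0.95 ± 0.36, 0.0168, 0.847) and Notch3 (0.49 ± 0.21, 0.0351, 0.983). The average effect of PB-020 over both antibody states gave 0 calls with each tool (0% of tested genes with edgeR), and 1 of the 10 genes, Abcc9, had an unadjusted p under 0.05 (log2 change −0.37 ± 0.15, adjusted p = 0.39).

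**Figure D5:**
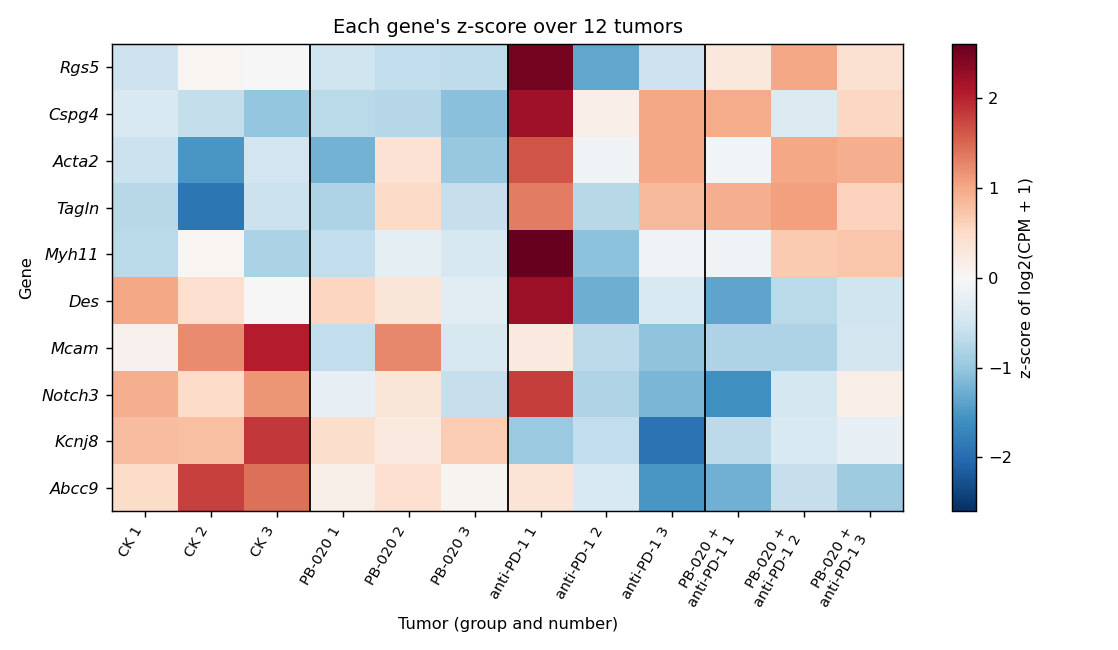
Each gene's z-score of log2(CPM + 1) (color, blue low and red high) over the 12 tumors, in columns by group and in rows by gene. Anti-PD-1 tumor 1 is red for most genes (mean z-score 1.398, against −0.684 to 0.361 in the other tumors), but Kcnj8 is blue there, as in all 6 tumors given the antibody.

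The wider set of mural cell genes was read from a list of 29, of which 25 were tested. In anti-PD-1 tumors edgeR called 4 of the 25 lower and 0 higher, beside 4.08% and 4.18% of all tested genes. An unadjusted p under 0.05 was found for 7, and DESeq2 called 5 lower and 1 higher, without shares over all tested genes to set beside them. The 4 called by edgeR were Pdgfrb, the receptor that holds pericytes at the vessel, Cd248 (endosialin), Ednrb, an endothelin receptor, and Vtn (vitronectin). Pdgfrb measured 30.98, 34.87 and 37.62 FPKM in CK tumors, 27.67, 29.55 and 29.18 FPKM with PB-020, 27.03, 28.59 and 24.28 FPKM with anti-PD-1 and 21.84, 21.63 and 24.53 FPKM in combination, so that every treated tumor was below every CK tumor (a pattern not counted over all tested genes). Its log2 change was −0.35 ± 0.08 (edgeR adjusted p = 0.019) for anti-PD-1 and −0.57 ± 0.08 (adjusted p = 0.00182) for the combination. Ednrb fell from 5.48 ± 0.98 FPKM in CK to 1.69 ± 0.53 FPKM with anti-PD-1 and 1.90 ± 0.23 FPKM in combination (SD, n = 3), a log2 change of −1.65 ± 0.22 (adjusted p = 0.0067) and −1.52 ± 0.22 (adjusted p = 0.00226). By its estimate that was the largest fall of the 4 with anti-PD-1, where Vtn changed by −1.50 ± 0.39 (edgeR adjusted p = 0.0335). In combination the estimate for Vtn was lower than that for Ednrb, at −1.86 ± 0.40 (edgeR adjusted p = 0.00874). Differences between Vtn and Ednrb were not tested. Combination tumors had 5 genes lower (beside 9.6% of all tested genes), which were Pdgfrb, Ednrb, Cd248, Vtn and Ebf1, a transcription factor of pericytes, and 1 higher, Angpt1, the ligand by which pericytes steady the endothelium (0.57 ± 0.03 FPKM against 0.12 ± 0.08 FPKM in CK, a log2 change of 2.33 ± 0.55 with adjusted p = 0.0136). Without anti-PD-1 tumor 1, Pdgfrb, Vtn, Ednrb and Cd248 were again the 4 genes called lower in anti-PD-1 tumors, beside 4.57% of all tested genes called.

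Of 37 further contractile and SRF genes, 32 were tested. Anti-PD-1 tumors had 4 higher (Srf, Cnn2, Ppp1r12b and Flna) and 1 lower (Itga7), and combination tumors 2 higher (Cnn2 and Srf) and 4 lower (Csrp1, Vcl, Itga7 and Mkl2). These 5 and 6 of 32 genes stand beside 8.26% and 17.9% of all tested genes, so the combination count is near the background. Srf itself, the factor that drives the contractile genes, measured 16.90, 17.25 and 17.08 FPKM in CK tumors, 18.26, 18.45 and 18.31 FPKM with PB-020, 23.64, 19.93 and 22.45 FPKM with anti-PD-1 and 19.40, 19.48 and 22.02 FPKM in combination. All 6 tumors with the antibody were above all 6 without it, and 8.6% of tested genes also separated these tumors in one direction or the other. The log2 change of Srf was 0.35 ± 0.07 (edgeR adjusted p = 0.0118) for anti-PD-1 and 0.25 ± 0.07 (adjusted p = 0.0258) for the combination. Cnn2, a calponin made by many cell types, changed by 0.35 ± 0.07 (adjusted p = 0.014) and 0.27 ± 0.07 (adjusted p = 0.02). Itga7, the muscle laminin receptor subunit, changed by −0.82 ± 0.22 (adjusted p = 0.0363) and −0.80 ± 0.22 (adjusted p = 0.0237). The list's median log2 change was 0.26 for anti-PD-1 and fell to 0.00 without anti-PD-1 tumor 1, when Flna was no longer called.

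Of 29 genes of the signals that reach mural cells, 26 were tested, and Pdgfb rose while Dll4 and Nos3 fell in both groups with the antibody, 3 of 26 beside 8.26% of all tested genes for anti-PD-1 and 17.9% for the combination. With all tumors that count is near the first share and below the second, so it does not set these genes apart. Without anti-PD-1 tumor 1, 0 of 26 were called higher for anti-PD-1 and 4 lower, beside 4.57% of all tested genes called. The 4 were Dll4, Tgfbr2, S1pr1 and Nos3. In combination tumors that fit called 2 higher (Pdgfb and Pdgfd) and 5 lower (Dll4, Tgfbr2, S1pr1, S1pr2 and Nos3), beside 24.4%. Pdgfb, the endothelial growth factor for pericytes, measured 8.97, 8.89 and 9.77 FPKM in CK tumors, 8.70, 13.80 and 9.30 FPKM with PB-020, 20.04, 12.01 and 16.57 FPKM with anti-PD-1 and 15.63, 13.81 and 16.60 FPKM in combination. Its log2 change was 0.81 ± 0.20 (edgeR adjusted p = 0.0318) for anti-PD-1, a call lost without anti-PD-1 tumor 1, and 0.76 ± 0.20 (adjusted p = 0.0237) for the combination. Dll4, a Notch ligand of sprouting endothelium, measured 2.92, 3.69 and 4.74 FPKM in CK tumors against 2.11, 2.06 and 1.83 FPKM with anti-PD-1 and 2.22, 2.19 and 2.19 FPKM in combination, changes of −0.90 ± 0.16 (adjusted p = 0.00938) and −0.76 ± 0.16 (adjusted p = 0.00833). Nos3, the endothelial nitric oxide synthase, changed by −0.60 ± 0.14 (adjusted p = 0.0224) and −0.59 ± 0.14 (adjusted p = 0.0126). Jag1, the Notch ligand that endothelium shows to mural cells, ranged from 6.67 to 9.71 FPKM with changes of −0.23 ± 0.11 (adjusted p = 0.184) and −0.25 ± 0.11 (adjusted p = 0.116), and Heyl, a NOTCH3 target, ranged from 0.22 to 0.71 FPKM.

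Markers of other cell types moved beside these genes, and their part in the results was not tested. Of 15 endothelial markers only Cldn5, a tight junction claudin, was called against CK with all tumors (log2 change −1.07 ± 0.26, edgeR adjusted p = 0.0249, and −0.98 ± 0.25, adjusted p = 0.0197), where 8.26% and 17.9% of all tested genes were called. The summed level of the 15 was 176.5 to 263.6 TPM in CK tumors, 155.1 to 182.1 TPM with PB-020, 143 to 265 TPM with anti-PD-1 and 156.1 to 190.2 TPM in combination. Their median log2 change against CK was −0.33 for PB-020 (15 lower), −0.27 for anti-PD-1 (13 lower, 2 higher) and −0.29 for the combination (13 lower, 2 higher). Pecam1 changed by −0.21 ± 0.17 (adjusted p = 0.467) and −0.24 ± 0.17 (adjusted p = 0.341), and Cdh5 by −0.53 ± 0.22 (adjusted p = 0.155) and −0.60 ± 0.22 (adjusted p = 0.0869). Without anti-PD-1 tumor 1 the median for anti-PD-1 was −0.61. In that fit 3 of 15 endothelial markers were called lower in anti-PD-1 tumors (Esam, Cldn5 and Flt1), beside 4.57% of all tested genes called. In combination tumors 4 of 15 were then called lower (Cdh5, Cldn5, Robo4 and Flt1), beside 24.4%. Fibroblast markers summed to 3347 to 4548 TPM in CK tumors, 3046 to 3235 TPM with PB-020, 1478 to 3180 TPM with anti-PD-1 and 1569 to 2257 TPM in combination. Col3a1, Pdgfra, Col5a1 and Dcn were the 4 of 13 fibroblast markers that fell in both comparisons, beside 4.08% and 9.6% of all tested genes called lower, while the median log2 change of the 13 was 0.46 and 0.32. The anti-PD-1 median was −0.20 without its tumor 1, where Dcn was no longer called. In combination tumors that fit called the same 4 lower and 4 higher (Lum, Dpt, Mfap5 and Thy1), beside 24.4% of all tested genes called. T cell markers summed to 20.97 to 29.17 TPM in CK tumors, 28.72 to 34.9 TPM with PB-020, 43.09 to 115.6 TPM with anti-PD-1 and 53.97 to 80.49 TPM in combination, and 6 of 7 tested (Cd3d, Cd3e, Cd3g, Cd2, Cd8a and Lck) rose in both comparisons, beside 4.18% and 8.35% of all tested genes called higher. Of the 6 markers, 4 (Cd3d, Cd8a, Cd2 and Lck) were called for anti-PD-1 without its tumor 1, beside 4.57% of all tested genes called, and the list's median log2 change there went from 1.41 to 0.87. With all tumors, none of 7 macrophage markers and none of 15 skeletal muscle markers was called against CK with edgeR, 0 and 6 of them having an unadjusted p under 0.05 for anti-PD-1. With DESeq2, 4 of the 15 skeletal muscle markers were called higher for anti-PD-1, and with limma on FPKM none. Shares of all tested genes are not given for the unadjusted threshold or for these tools. The 7 macrophage markers summed to 2046 TPM in anti-PD-1 tumor 1 and to 1034 to 1419 TPM in the others. Without that tumor edgeR called 2 of 7 (Csf1r and Mrc1) lower in both comparisons, beside 4.57% and 24.4% of all tested genes called. Of the skeletal muscle markers it then called 0 for anti-PD-1 and 2 (Ttn and Neb) lower in combination tumors. Among the lists for cardiac muscle, skin and fat, and Schwann, glial and pigment cells, Krt14 was higher and Pdgfra lower in both comparisons, and Tnnt2 was higher and Pmp22 lower in combination tumors.

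As a description of likeness, the mean z-score of the 10 genes over 12 tumors was compared with every other tested gene. The 8 closest were Nid1 (nidogen, a basement membrane protein; r = 0.968), Il4ra (0.947), Cerk (0.944), Stab1 (0.943), Tcn2 (0.943), Trem2 (0.941), Myh10 (0.940) and Grb10 (0.925). Stab1 and Trem2 are receptors known from macrophages. Without anti-PD-1 tumor 1 each of the 8 coefficients was lower, and over 11 tumors they ran from 0.817 for Trem2 to 0.926 for Myh10. Within the 10 genes the lowest coefficient was that of Cspg4 with Kcnj8 (r = −0.783) and the highest that of Rgs5 with Myh11 (r = 0.928), over 12 tumors that share treatment groups.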

How the data were processed

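Gene expression was measured by bulk RNA sequencing (Illumina, paired ends) in 12 MC38 tumors. Per the labels and the study's methods, the authors aligned reads to GRCm38.p6 (mm10) with Bowtie2 (HISAT is also named) and quantified genes with RSEM. The deposited table gives expected counts, FPKM and TPM per tumor, of which 91.0% of the expected counts are whole. Versions, annotation and strand setting are not given in the sources used here. Positions and promoter windows were taken from RefSeq (18091 of 18211 genes matched).

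Expected counts were rounded and fitted in edgeR 4.0.16 (R 4.3.3; TMM, filterByExpr with a minimum count of 10, robust quasi-likelihood test, 4 group means over all 12 libraries), with two-sided tests and Benjamini-Hochberg adjustment over 13563 genes at 0.05. Alternatives were DESeq2 1.42.0, limma 3.58.1 on log2(FPKM + 1), log2(FPKM + 0.1) and, added after the data were seen, log2(TPM + 1), other scaling and filters, a replicate block, the compared groups alone and each library left out. The fit was tested on simulated counts. Pairs of genes were tested by permutation (100000 resamples) on log2(CPM + 1).

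The 10 genes and the 12 other lists (mural, contractile and SRF, signals to mural cells, endothelial, fibroblast, skeletal muscle, cardiac, colon epithelial, skin and adipocyte, Schwann and glial, T cell, macrophage) were chosen with earlier results of these data known. Named genes are the 10 genes in every comparison, listed genes past adjusted p 0.05 (up to 8 per direction), a fixed set of signals, relatives and markers, and the 8 genes most like the mean z-score. Totals of 16545394 to 17217035 counts per library limit precision mainly for genes under about 100 counts (Myh11, Kcnj8). Intervals and tests do not separate technical from biological spread.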

Additional observations from a re-analysis of the deposited data

How the results depend on the processing

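The number of the 10 genes called against CK depended on the tool and on single libraries. For anti-PD-1 (3 genes) it was 6 with DESeq2, 1 with limma on log2(TPM + 1), 0 in a fit of the compared groups alone and 1 to 6 with 1 library left out. For the combination (4 genes) it was 7 in the fit of the compared groups alone and 1 to 6 with 1 library left out. For the combination against PB-020 (0 genes) it was 2 in the fit of the compared groups alone and 0 to 1 with 1 library left out. For tumors with against tumors without the antibody (6 genes) it was 3 with limma on log2(TPM + 1) and 3 to 6 with 1 library left out, and for the interaction (0 genes) it was 1 under the fold rule. The cause of these shifts was not tested, except that fits of the compared groups alone use 6 libraries in place of 12. The median log2 change for anti-PD-1 (0.29) was −0.041 with limma on log2(FPKM + 1), −0.105 on log2(FPKM + 0.1), −0.060 on log2(TPM + 1) and −0.39 to 0.44 with 1 library left out, and that of the interaction (0.00) ran from −0.12 to 0.40. Among comparisons of anti-PD-1 with CK, the combination with CK, and tumors with against without the antibody, single genes changed direction in the first: with 1 library left out Rgs5 ran from −0.27 to 0.48, Myh11 from −0.043 to 1.17 and Des from −1.35 to 0.83, each lowest without anti-PD-1 tumor 1 and highest without anti-PD-1 tumor 2, and Des was −0.19, −0.35 and −0.24 with limma on log2(FPKM + 1), log2(FPKM + 0.1) and log2(TPM + 1). In the comparisons with no gene called, values also crossed 0 with 1 library left out, such as Acta2 for PB-020 (−0.13 to 0.25) and Des in the interaction (−1.92 to 0.25). Of 181 recomputed counts 159 were within 1.5 times the reported count. These include comparisons with 0 of the 10 genes called, in most of which edgeR called 0% of all tested genes. Agreement there says little about the comparisons with calls. Of 173 recomputed medians 168 were within 0.281 of the reported median (1 SD between tumors), and the 5 pairs kept direction and side of the threshold on log2(FPKM + 1).

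Tumors with the same number in different groups did not deviate together (correlations of −0.170 to 0.124 for number 1, −0.195 to 0.294 for number 2 and −0.241 to 0.000995 for number 3), so the numbers were not taken to pair them. With the replicate block the count was 2 for the combination and 3 for tumors with against without the antibody, and the other 6 comparisons had the same counts. The genes not called with the block were Tagln (adjusted p = 0.0766) and Mcam (0.0609) for the combination, and Acta2 (0.0558), Tagln (0.0636) and Mcam (0.0672) for tumors with against without the antibody. Depth limits Myh11 and Kcnj8 most.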
